A study of Mus musculus with 42 samples.

Results

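Cysteine tRNA carries the anticodon GCA and is represented in the tRNA-seq data by 23 references, of 220 tRNA references and 242 references in all. They were taken by name, as every reference whose name contains tRNA-Cys, and the rule uses no measured value. No other of the 51 isoacceptors (tRNAs that share an anticodon) has as many references, the next being Lys-CTT with 12. With a mean of at least 10 RPM (reads scaled to the size of the library, as deposited by the authors), 11 cysteine references could be tested: Cys-GCA-1, 2, 3, 4, 4-, 5, 7, 8, 16, 17 and 21, where 4- is a separate reference whose name ends in a hyphen. All 11 also stood above 10 RPM in both libraries of unstimulated cells, so none of them passed only because it was high later on. The other 12 (Cys-GCA-6, 9, 10, 11, 12, 13, 14, 15, 18, 19, 24 and 25) had means from 0.363 to 7.91 RPM.

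A tRNA brings an amino acid to the ribosome by pairing its anticodon with a codon. Cysteine tRNA reads both cysteine codons, and it is charged by the cysteinyl-tRNA synthetase. Mammalian genomes hold many cysteine tRNA genes whose anticodon is the same while the rest of the sequence differs, and such variants are called isodecoders. They are transcribed by RNA polymerase III from promoter elements inside the gene. The T loop of most cytosolic tRNAs carries a methyl group on adenosine 58 (m1A58), which is placed by an enzyme made of Trmt61a and Trmt6 and is known to stabilise the fold of tRNA.

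The study used CD4 T cells from mouse spleen, purified with a kit as naive cells. Antibodies coated on the plate, against CD3 (5 µg/ml) and CD28 (2 µg/ml), served as the stimulus. For tRNA-seq, cells of wild-type (WT) mice were compared at 0, 6, 18 and 48 h, with 2 libraries at each time. All of these libraries are labelled as treated with AlkB, a demethylase. m1A was measured at 6 h in WT cells and in cells with a conditional knockout (cKO) of Trmt61a, and RNA-seq of both genotypes covers 0, 3, 6 and 48 h. The growth protocol gives an age of 8 weeks, the strain C57BL/6 is named for m1A-seq and RNA-seq, and the driver of Cre is named (Cd4Cre) for another assay of the series only. Nothing says that replicates are separate animals, so the spread behind each p-value may be that of technical replicates. tRNA reads hold no mRNA, so the cell type of the tRNA-seq samples could not be checked against markers.

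Library totals lay between 67261117 and 92701839 reads. Reads on tRNA references were 66.7% of the total in both libraries at 0 h and from 83.0% to 91.5% in the 6 later libraries, so most tRNA references were higher in RPM after stimulation. Over the 168 tested tRNA references the median log2 change in RPM from 0 h was 0.36, 0.55 and 0.62 after 6, 18 and 48 h. On what is called the tRNA scale here, where the library size is the number of tRNA reads multiplied by a TMM factor, these medians were -0.011, -0.015 and 0.066. Changes of cysteine references are therefore given on both scales, and also as a share of cysteine reads, which does not depend on either. Fewer cells of a type and less RNA per cell cannot be told apart in such bulk samples.

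In the RefSeq annotation of GRCm38.p6, the mouse assembly known as mm10, 57 of 430 tRNA genes are cysteine tRNA genes. Of these, 49 lie on chromosome 6 within 384607 bases (chr6:47978997-48363603), 5 on chromosome 11, 2 on chromosome 9 and 1 on chromosome 17. All but 1 of the 57 are 72 bases long. Names of the references and of these genes do not correspond, and a reference name does not say how many gene copies it stands for, so no reference was placed on the genome. The sequences of the references were not used here.

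Cys-GCA-1, 4, 4-, 16, 17 and 21, all minor references of the family at 0 h, were higher at 6 h and higher again at 18 h. Of these 6, Cys-GCA-1 was the most abundant and stood at 191 and 197 RPM at 0 h, 530 and 555 at 6 h, 1239 and 1406 at 18 h, and 1646 and 1290 at 48 h. Its values at 0 h, 6 h and 18 h did not overlap, whereas those at 18 h and 48 h did. The means at 6 h, 18 h and 48 h were 2.80, 6.82 and 7.57 times the mean at 0 h. In edgeR's quasi-likelihood test with Benjamini-Hochberg adjustment over 190 references, the log2 change from 0 h was 1.48 at 6 h (SE 0.13, adjusted p = 0.000309), 2.77 at 18 h (SE 0.14, adjusted p = 3.8e-06) and 2.92 at 48 h (SE 0.14, adjusted p = 2.71e-06).

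Cys-GCA-16, 17 and 21 followed at lower levels. Cys-GCA-16 was measured at 11.6 and 13.0 RPM at 0 h, 36.3 and 40.9 at 6 h, 103 and 114 at 18 h, and 154 and 116 at 48 h. For Cys-GCA-17 the values were 13.5 and 13.9, 37.1 and 37.9, 97.8 and 112, and 150 and 114 RPM at the same times. For Cys-GCA-21 they were 11.6 and 12.7, 38.6 and 40.4, 96.9 and 112, and 147 and 114. In all 3 references every stimulated library was above both unstimulated ones, and every 18 h library was above both 6 h libraries. Replicate 2 of 48 h, the lower of its pair, was just above the higher 18 h library. How many of all tested references separate in this way was not counted. By edgeR, 46.8%, 61.1% and 61.6% of all tested references were called higher at 6 h, 18 h and 48 h than at 0 h (adjusted p under 0.05). From 6 h to 18 h 31.6% were. Reads may be split among these 3 references, so they are not independent measurements. The log2 change from 0 h to 48 h was 3.46 for Cys-GCA-16 (SE 0.23), 3.26 for Cys-GCA-17 (SE 0.22) and 3.43 for Cys-GCA-21 (SE 0.22), with adjusted p between 6.39e-06 and 7.16e-06 by edgeR.

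Cys-GCA-4 and Cys-GCA-4- had nearly equal values. Cys-GCA-4 stood at 15.95 and 17.6 RPM at 0 h, 40.1 and 44.1 at 6 h, 113 and 126 at 18 h, and 188 and 146 at 48 h. Cys-GCA-4- stood at 16.6 and 15.95 RPM at 0 h, 40.9 and 45.8 at 6 h, 115 and 129 at 18 h, and 189 and 145 at 48 h. Here no library of a later time overlapped one of an earlier time, including 48 h against 18 h. How many of all tested references do the same was not counted. The log2 change from 0 h to 48 h was 3.32 for Cys-GCA-4 (SE 0.22, edgeR adjusted p = 6.39e-06) and 3.36 for Cys-GCA-4- (SE 0.22, edgeR adjusted p = 6.39e-06).

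**Figure D1:**
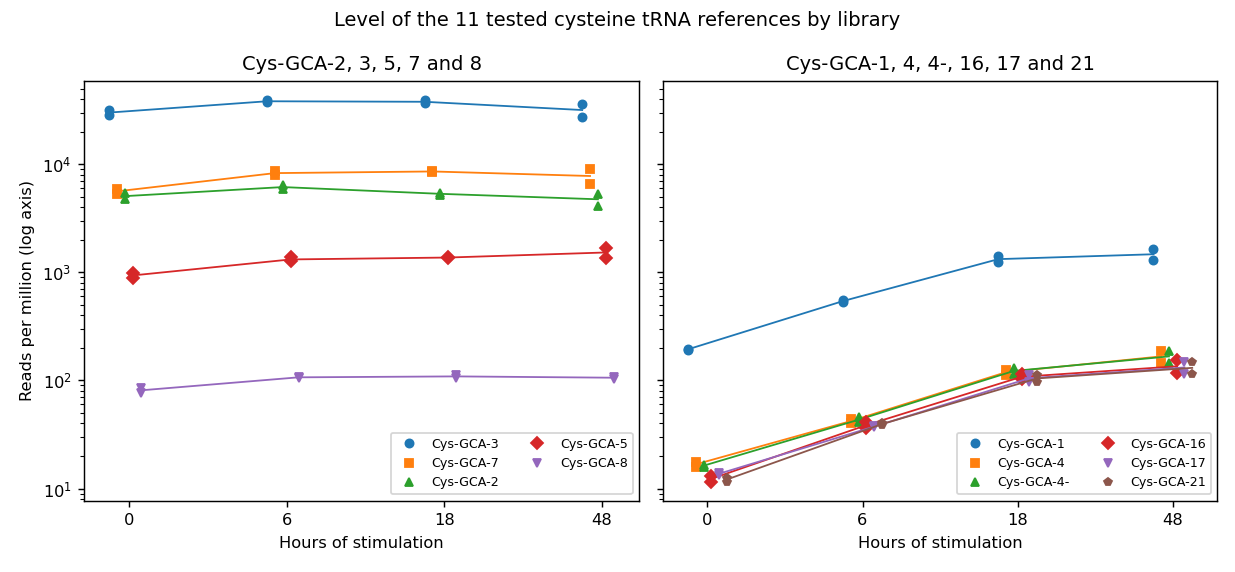
Level of each tested cysteine reference in RPM (log axis) against hours of stimulation, with 1 marker per library and lines through the means of 2 libraries. In the right panel Cys-GCA-1 climbs from 194 to 1468 on average and the 5 references below it from 12.1 to 16.8 up to 131 to 167, while in the left panel no mean moves by more than 1.63 times its value at 0 h.

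Counts of Cys-GCA-4 and Cys-GCA-4- were nearly equal in each library, with a ratio between 0.96 and 1.10. The same holds for Cys-GCA-16, 17 and 21, whose pairwise read ratios lay between 0.86 and 1.16 over all 8 libraries. How the authors assigned a read that matches several references is not given in the sources used here, so reads may be split among near-identical references and these 5 are not 5 independent measurements. Summed, Cys-GCA-16, 17 and 21 changed by 1.60 at 6 h, 3.06 at 18 h and 3.38 at 48 h on the log2 scale (SE 0.17 to 0.18), and Cys-GCA-4 with 4- by 1.37, 2.87 and 3.34 (SE 0.18 to 0.19). All 6 of these changes passed the adjusted threshold of 0.05 by edgeR. These sums were chosen after seeing the data. Counting error is small here: the lowest count among the 6 references was 851 reads, for Cys-GCA-21 at 0 h.

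By fold change these references stood at the top of the whole table. At 6 h Cys-GCA-21, 16, 1, 17, 4- and 4 held ranks 1 to 6 of 190, with log2 changes from 1.33 to 1.70, and at 18 h the same 6 again held ranks 1 to 6, with changes from 2.77 to 3.13. At 48 h they held ranks 1 to 5 and, for Cys-GCA-1, rank 7. On the tRNA scale the changes at 48 h were 2.36 for Cys-GCA-1 and from 2.71 to 2.90 for the other 5, with adjusted p from 7.99e-07 to 3.69e-06 by edgeR. At 6 h they were between 0.96 and 1.34 on that scale, and at 18 h between 2.20 and 2.57. Other families also held references with large changes in RPM at 48 h, among them Ala-AGC-3 (rank 6, log2 change 3.18), Ala-TGC-4 (2.84) and Gln-CTG-1 (2.63). Ranks describe these libraries and were not tested.

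**Figure D2:**
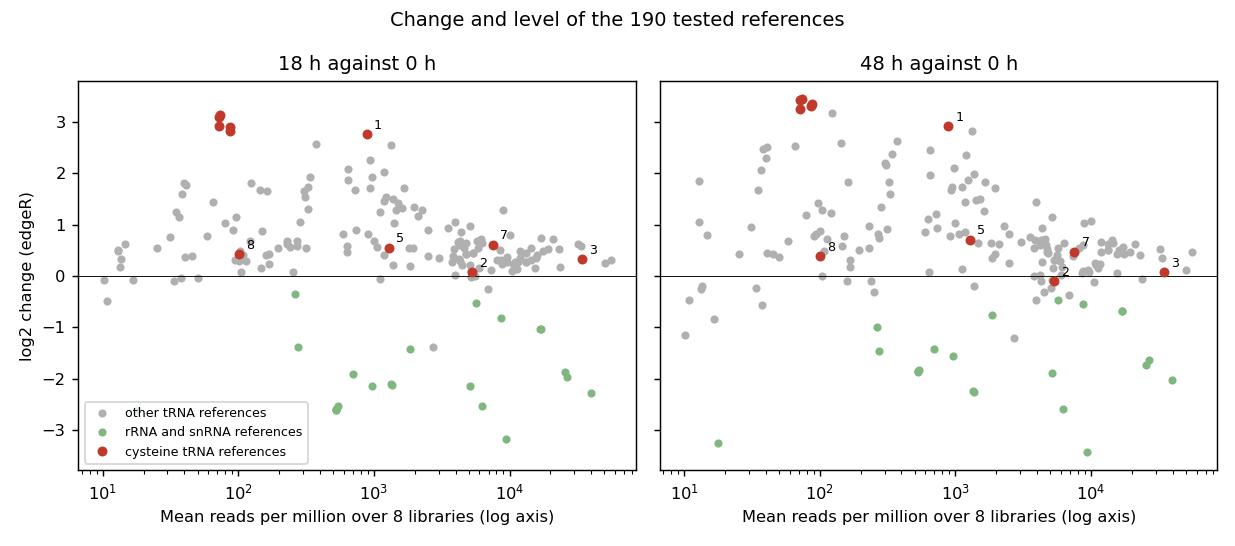
The log2 change from 0 h at 18 h (left) and 48 h (right) against the mean level in RPM (log axis), with 1 point for each of the 190 tested references. Cysteine references are red, other tRNAs grey, and rRNA and small nuclear or nucleolar RNAs green. The unlabelled red points at the upper left, Cys-GCA-4, 4-, 16, 17 and 21, have log2 changes from 2.83 to 3.13 at 18 h and from 3.26 to 3.46 at 48 h, and the labelled numbers are those of the other cysteine references.

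These 6 references rose between 6 h and 18 h as well, while no change after 18 h passed the test in RPM. From 6 h to 18 h the log2 change of the 6 references lay between 1.29 for Cys-GCA-1 and 1.502 for Cys-GCA-4, with edgeR adjusted p from 0.000229 to 0.00119. In this contrast 6 of 11 cysteine references were called higher at an adjusted p under 0.05, against 31.6% of all references tested, and 0 lower, against 10.5%. DESeq2, with its own size factors, called the same number higher and 1 lower, while edgeR in RPM had no lower one at an unadjusted p under 0.05. From 18 h to 48 h 0 of 11 were called higher by edgeR, against 12.1% of all references, and 0 lower, against 4.74%. At an unadjusted p under 0.05, 1 was higher (Cys-GCA-4, log2 change 0.49, SE 0.20, adjusted p = 0.123) and 0 lower, and DESeq2 called 2, Cys-GCA-4 and 4-, and limma 0. For Cys-GCA-1 this last change was 0.15 (95% interval -0.15 to 0.45) and turned to -0.036 without replicate 1 of 48 h.

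Most cysteine tRNA reads came from other references. Cys-GCA-3, which alone made up most of the family, stood at 28343 and 31598 RPM at 0 h, 37175 and 39060 at 6 h, 36361 and 39035 at 18 h, and 36112 and 27136 at 48 h. Both libraries at 6 h and 18 h were above both at 0 h, and the pair at 48 h lay on either side of them. Its log2 change was 0.35 at 6 h (SE 0.14, edgeR adjusted p = 0.0668), 0.33 at 18 h (SE 0.14, adjusted p = 0.0623) and 0.078 at 48 h (SE 0.14, adjusted p = 0.627), so it passed the threshold at no time. On the tRNA scale these values were -0.018, -0.24 and -0.48, the last with an adjusted p of 0.0158 by edgeR. The changes of Cys-GCA-3 at 6 h and 18 h passed in RPM when either 48 h library was left out (adjusted p from 0.0192 to 0.0242).

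Cys-GCA-7 and Cys-GCA-2 were next in abundance and differed from each other. Cys-GCA-7 was measured at 5281 and 5931 RPM at 0 h, 7965 and 8550 at 6 h, 8448 and 8658 at 18 h, and 8957 and 6573 at 48 h. For Cys-GCA-2 the values were 4750.1 and 5369 RPM at 0 h, 5893 and 6376 at 6 h, 5236 and 5390 at 18 h, and 5344 and 4116 at 48 h. All later libraries of Cys-GCA-7 were above both at 0 h, while those of Cys-GCA-2 overlapped the unstimulated ones at 18 h and 48 h. In RPM Cys-GCA-7 rose by a log2 change of 0.56 at 6 h, 0.61 at 18 h and 0.47 at 48 h (SE 0.14 each, edgeR adjusted p = 0.0126, 0.00557 and 0.0174), and on the tRNA scale these were 0.19, 0.045 and -0.083 and not called. Without replicate 1 of 0 h its change was not called at 6 h (adjusted p = 0.0821) or at 48 h (0.1), and without replicate 1 of 48 h the latter was 0.23 (0.103). Cys-GCA-2 had changes of 0.28, 0.070 and -0.097 in RPM, none called with all libraries, and -0.086, -0.49 and -0.65 on the tRNA scale, where those at 18 h (adjusted p = 0.0133) and 48 h (adjusted p = 0.00262) passed. Its change at 6 h in RPM passed when either 48 h library was left out (adjusted p = 0.0453 without replicate 1 and 0.0457 without replicate 2).

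Cys-GCA-5 and Cys-GCA-8 complete the tested references. Cys-GCA-5 stood at 880 and 992 RPM at 0 h, 1259 and 1371 at 6 h, 1352 and 1386 at 18 h, and 1692 and 1357 at 48 h, with no overlap between 0 h and any later time. Its log2 change in RPM was 0.49, 0.55 and 0.70 (SE 0.12 each, edgeR adjusted p = 0.0119, 0.00455 and 0.00118), against 0.13, -0.015 and 0.15 on the tRNA scale, none called. The call at 6 h was lost without replicate 1 of 0 h (adjusted p = 0.0853) or replicate 2 of 6 h (0.0611). Cys-GCA-8 was measured at 76.7 and 85.3 RPM at 0 h, 109 and 105 at 6 h, 106 and 112 at 18 h, and 109 and 103 at 48 h. It too was lowest in both unstimulated libraries, with log2 changes of 0.40 (adjusted p = 0.0668), 0.43 (adjusted p = 0.0431) and 0.39 (adjusted p = 0.0585) by edgeR (SE 0.16 each), and 0.034, -0.14 and -0.17 on the tRNA scale, none called. Its call at 18 h in RPM was lost without either 0 h or 6 h library or without replicate 2 of 18 h (adjusted p from 0.0873 to 0.226).

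Counted over the 11 tested references in RPM, 8 were called higher at 6 h, against 46.8% of all references, 9 at 18 h, against 61.1%, and 8 at 48 h, against 61.6%. Called lower were 0 at each of these times, against 8.42%, 11.6% and 13.7% of all references. None of the 11 was lower at an unadjusted p under 0.05 by edgeR or limma in RPM. DESeq2 called 0, 1 and 2 lower, but with its own size factors. On these the median log2 change of tRNA references was 0.039 at 6 h, 0.027 at 18 h and 0.062 at 48 h. The median log2 change of the 11 was 1.33 at 6 h, against 0.32 over all references. On the tRNA scale 6 of 11 were called higher at each time, against 9.52%, 28.6% and 33.9% of 168 tRNA references, and 0, 1 and 2 lower, against 2.98%, 16.1% and 22.6%. The 6 called higher on the tRNA scale were Cys-GCA-1, 4, 4-, 16, 17 and 21 at every time. Cys-GCA-4 with 4-, and Cys-GCA-16 with 17 and 21, enter these counts and the median of 1.33 singly. Reads may be split among them, so they are not independent measurements.

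As a share of cysteine tRNA reads, Cys-GCA-1, 4, 4-, 7, 16, 17 and 21 gained and Cys-GCA-2 and 3 lost at 6 h, 18 h and 48 h. Cys-GCA-3 gave 71.5% and 71.4% of cysteine reads at 0 h, 69.9% and 69.4% at 6 h, 68.2% and 68.9% at 18 h, and 66.0% and 65.8% at 48 h. The share of Cys-GCA-2 was 11.99% and 12.1% at 0 h, 11.1% and 11.3% at 6 h, 9.82% and 9.51% at 18 h, and 9.76% and 9.97% at 48 h. Shares of both fell below the 0 h range in every later library, and those of Cys-GCA-2 at 18 h and 48 h overlapped. Cys-GCA-7 moved the other way, from 13.3% and 13.4% at 0 h to 15.0% and 15.2% at 6 h, 15.8% and 15.3% at 18 h, and 16.4% and 15.9% at 48 h. Cys-GCA-5 went from 2.22% and 2.24% to 2.37% and 2.44%, 2.54% and 2.45%, and 3.09% and 3.29%.

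Together Cys-GCA-1, 4, 4-, 16, 17 and 21, a set grouped after its values were seen, gave 0.657% and 0.610% of cysteine reads at 0 h. The same sum was 1.36% in both libraries at 6 h, 3.31% and 3.53% at 18 h, and 4.52% and 4.67% at 48 h. Replicates lay close together against the steps between times, and at 48 h the libraries agreed in share although they differed in RPM. Cys-GCA-1 supplied most of it, with 0.482% and 0.445% of cysteine reads at 0 h and 3.01% and 3.13% at 48 h. Cys-GCA-2, 3 and 7 together went from 96.9% at 0 h to 91.9% at 48 h (SD 0.019 and 0.32, n = 2).

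**Figure D3:**
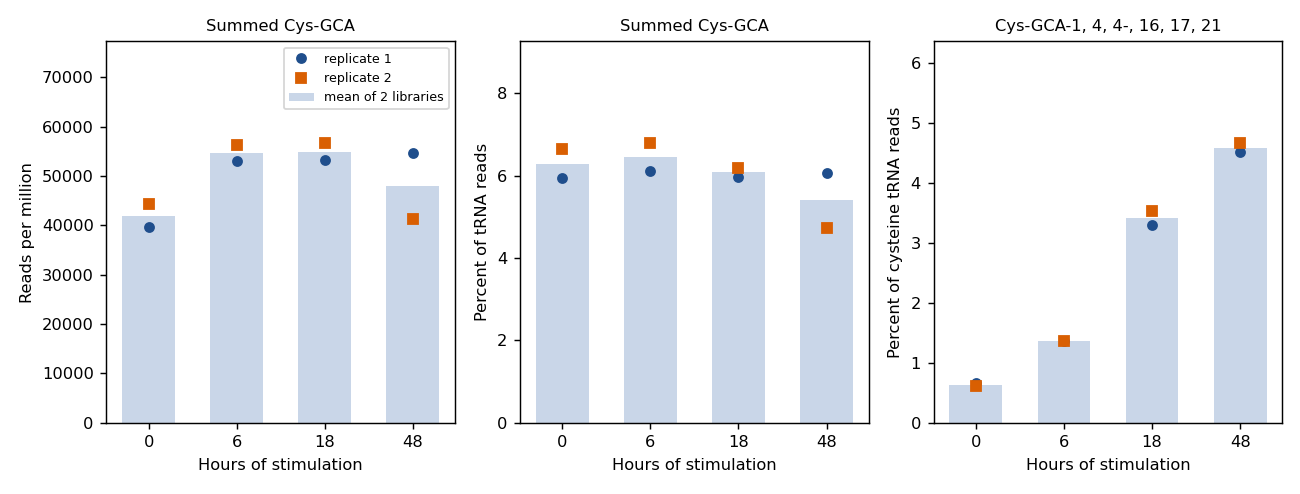
Summed cysteine tRNA in RPM (left) and as a percent of tRNA reads (middle), and Cys-GCA-1, 4, 4-, 16, 17 and 21 as a percent of cysteine tRNA reads (right), against hours of stimulation. Bars are means of 2 libraries and markers the libraries, and the mean share on the right goes from 0.634% to 4.59% while the mean in the middle lies between 5.40% and 6.44%.

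Shares were tested by edgeR with the total of the isoacceptor as offset, over 161 references of 42 isoacceptors. At 6 h 7 cysteine references had a higher share, against 15.5% of all references tested, and 2 a lower one, against 6.83%. At 18 h these were 8, against 38.5%, and 2, against 19.3%, and at 48 h 8, against 46.6%, and 2, against 25.5%. The 2 with a lower share were Cys-GCA-2 and 3 each time, and Cys-GCA-8 was called at no time with all libraries. Its log2 change in share at 48 h was 0.22 with all libraries and 0.38 without replicate 1 of 48 h. Shares of a family add up to the whole, so gains and losses within it are not independent calls. Cys-GCA-3 gave most of the total used as its own offset, so its fall is not separate from gains of other references. At 6 h the lower calls numbered 0 without replicate 1 of 0 h or replicate 2 of 6 h, and 1 without either of the other libraries of these times.

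Cys-GCA-16 had log2 changes in share of 1.27, 2.74 and 3.26 at 6 h, 18 h and 48 h (SE 0.11 each, edgeR adjusted p = 0.00119, 8.19e-06 and 2.24e-06). Cys-GCA-1 changed by 1.10, 2.37 and 2.73 (SE 0.06 each, adjusted p = 0.000229, 1.44e-06 and 5.48e-07). The 6 references held ranks 1 to 6 of 161 at each of the 3 times. Among the major references the share of Cys-GCA-7 rose by 0.18, 0.22 and 0.27 (SE 0.02 each), that of Cys-GCA-2 fell by 0.11, 0.32 and 0.29 on the log2 scale (SE 0.02 each) and that of Cys-GCA-3 fell by 0.036, 0.060 and 0.12 (SE 0.0062 each). Cys-GCA-5 had share changes of 0.11 (adjusted p = 0.159), 0.16 (adjusted p = 0.02) and 0.52 (adjusted p = 6.89e-05) by edgeR, of which that at 18 h was lost without either 0 h library or replicate 1 of 18 h (adjusted p from 0.0679 to 0.0817), and by limma on the log2 ratio (adjusted p = 0.0768).

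Shares kept moving after 18 h. From 18 h to 48 h 7 cysteine references gained share, against 23.6% of all references, and 1, Cys-GCA-3, lost share, against 12.4%. The gain was 0.35 on the log2 scale for Cys-GCA-1 (SE 0.06, adjusted p = 0.00602), between 0.52 and 0.69 for Cys-GCA-4, 4-, 16, 17 and 21, and 0.36 for Cys-GCA-5 (SE 0.04, adjusted p = 0.00205 by edgeR). From 6 h to 18 h 6 gained share, against 37.9%, and 2 lost share, against 21.1%, with log2 changes from 1.28 to 1.49 for the 6 and -0.21 for Cys-GCA-2. The loss of Cys-GCA-3 in that interval was 0.023 on the log2 scale (SE 0.0062, edgeR adjusted p = 0.0187). Without replicate 1 of 6 h or replicate 1 of 18 h only 1 lower share was called there.

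Set beside the other isoacceptors, cysteine tRNA had the widest spread of share changes among its references at 6 h, 18 h and 48 h of the 42 with at least 2 tested references. The highest and lowest log2 changes in share were 1.42 apart at 6 h, against 1.11 for the next, Ser-CGA. At 18 h the distance was 3.06, against 2.39 for Ala-TGC, and at 48 h it was 3.55, against 3.37 for Ala-AGC. Cysteine has more tested references than any of these, with 11 against 3, 7 and 8, and the distances were not tested. From 6 h to 18 h Ala-AGC had the widest spread, at 2.12, and cysteine held rank 5, at 1.71. From 18 h to 48 h Ala-AGC was again widest, at 1.48, and cysteine held rank 14, at 0.74.

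The 12 references under 10 RPM together gave 26.1 and 29.8 RPM at 0 h, 38.6 and 41.2 at 6 h, 34.0 and 66.3 at 18 h, and 40.6 and 53.1 at 48 h. Several of them differed between the 18 h libraries: Cys-GCA-18, the most abundant, stood at 4.66 and 13.1 RPM and Cys-GCA-10 at 3.07 and 7.62. With no filter on RPM, 3 of the 12 were called higher at 18 h and at 48 h, namely Cys-GCA-6, 9 and 11, where 47.9% and 50% of 242 references were. Cys-GCA-9 went from 2.55 and 2.88 RPM at 0 h to 9.19 and 8.89 at 48 h (log2 change 1.73, SE 0.34, edgeR adjusted p = 0.00264). Cys-GCA-11 went from 1.20 and 1.249 to 4.93 and 5.35 RPM (log2 change 2.07, SE 0.46, edgeR adjusted p = 0.00504). For Cys-GCA-6 the change was 1.01 (SE 0.38, adjusted p = 0.048), from 2.82 and 3.27 to 5.34 and 6.89 RPM. None of the 12 was called at 6 h, where 35.5% of 242 references were called higher by edgeR.

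The sum of all 23 references describes how much cysteine tRNA the libraries held. It came to 39616 and 44275 RPM at 0 h, 53161 and 56266 at 6 h, 53301 and 56646 at 18 h, and 54728 and 41264 at 48 h. The 6 h and 18 h libraries were above those of 0 h, and replicate 2 of 48 h lay between the 0 h values. In edgeR over 49 isoacceptors the log2 change was 0.38 at 6 h (SE 0.14, adjusted p = 0.00952), 0.39 at 18 h (SE 0.14, adjusted p = 0.00837) and 0.19 at 48 h (SE 0.14, adjusted p = 0.18), where 85.7%, 85.7% and 79.6% of isoacceptors were called higher. Without replicate 2 of 18 h the change at 18 h was not called (0.35, adjusted p = 0.0678). At 48 h it was -0.024 without replicate 1 (adjusted p = 0.887) and 0.38, and called, without replicate 2 (adjusted p = 0.0281).

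On the tRNA scale the sum changed by 0.012 at 6 h (95% interval -0.30 to 0.33), -0.041 at 18 h (-0.36 to 0.27) and -0.21 at 48 h (-0.53 to 0.10), none called by edgeR. As a percent of tRNA reads it was 5.94% and 6.64% at 0 h, 6.10% and 6.78% at 6 h, 5.96% and 6.19% at 18 h, and 6.06% and 4.73% at 48 h. Both 48 h libraries lay below both 6 h libraries, and the values of every other pair of times overlapped. An exact permutation test over the 8 libraries (two-sided by construction, smallest possible p = 0.00952) gave p = 0.495 for the share of tRNA reads and p = 0.276 for RPM.

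Over the 8 libraries the summed level, as log2(RPM + 1), was most like that of Thr-TGT (Pearson r = 0.902), Gly-CCC (0.885), Leu-TAA (0.856), Ala-CGC (0.834) and Arg-CCT (0.812). These points share the libraries and their tRNA content. As a percent of tRNA reads the coefficients with the same 5 were 0.657, 0.740, 0.595, 0.698 and 0.390. Thr-TGT had mean levels of 8018, 11917, 13278 and 9780 RPM over the 4 times.

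For m1A, the deposited table holds 1 level per genotype and isoacceptor at 6 h, with no value per replicate, so no difference was tested. The m1A level of Cys_GCA, the name of cysteine tRNA in that table, was 84.1% in WT and 24.7% in the cKO, a loss of 59.5 percentage points. In the cKO 29.3% of the WT level was kept. Over all 44 isoacceptors of the table the medians were 90.8% in WT, 34.4% in the cKO and 57.7 points for the loss. Cysteine tRNA was thus below the median in both genotypes, with the eighth lowest level in WT and the tenth lowest in the cKO, and close to the median in the loss.

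Its coverage was 19176, against a median of 13646. In the cKO its nearest neighbours below were Phe-GAA at 21.6%, Gly-GCC at 20.7% and Ile-TAT at 19.6%, and above it stood Lys-TTT at 25.1%, Gly-TCC at 25.4% and Arg-TCG at 25.5%. Without replicate values their order cannot be told apart from error. The table gives 1 value for the isoacceptor, to which the references contribute in unknown parts. At 6 h Cys-GCA-3 gave 69.7% of cysteine reads in WT tRNA-seq and the 6 rising references 1.36%, on average.

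**Figure D4:**
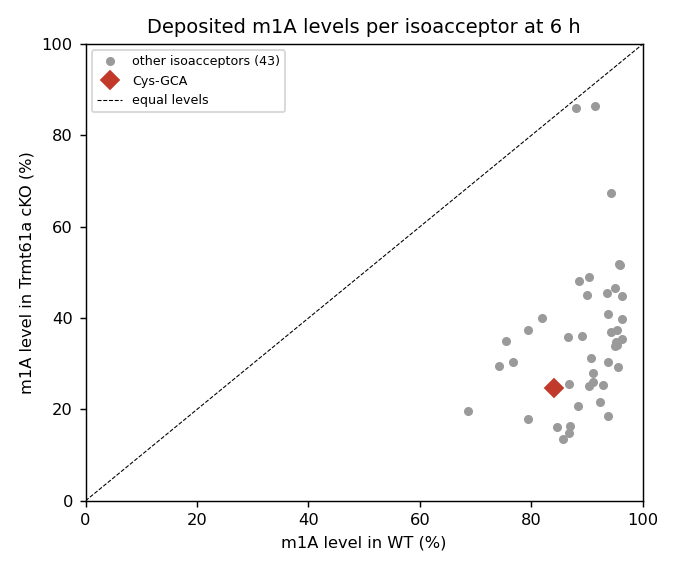
m1A level in Trmt61a cKO against that in WT cells at 6 h, in percent, with 1 point per isoacceptor of the authors' deposited table and a dashed line where both would be equal. Cys-GCA (red) lies at 84.1% and 24.7%, far below the line, to the left of most isoacceptors and in the lower part of their range.

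RNA-seq gives the state of genes that act on cysteine tRNA. The authors' deposited tables list genes with an unadjusted p under 0.05, so a gene that is not listed has no value here. Trmt61a (ENSMUSG00000060950, chr12:111678105-111683902), the targeted gene, was listed at all 4 times. Its scaled read counts were 22.6 and 22.9 in the cKO against 363 and 216 in WT at 0 h, 136 and 98.8 against 1148 and 1133 at 3 h, 180 and 134 against 900 and 2067 at 6 h, and 22.8 and 60.6 against 955 and 983 at 48 h. In every cKO library it was below every WT library, with log2 fold changes of -3.67, -3.28, -3.24 and -4.54 in the authors' deposited tables.

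Of 25 genes of cysteine tRNA charging and modification, cysteine supply and glutathione synthesis, 1, 4, 3 and 1 were listed at 0, 3, 6 and 48 h. In all, 384, 1091, 740 and 1195 genes were listed at these times. The p-values were adjusted over 24502, 15399, 16602 and 9940 genes. Called at an adjusted p under 0.05 were Trmt61a, as the only lower one, at each time and 1 higher gene, at 3 h, where the authors' deposited tables called 0.0122%, 1.64%, 0.5% and 2.37% of genes. That gene was Slc3a2, the heavy chain shared by several amino acid transporters, including the cystine importer. Slc7a11, also among the 25 genes, was listed at no time, and cystine import was not measured. Slc3a2 stood at 17201 and 16045 in the cKO and 8121 and 9081 in WT at 3 h (log2 fold change 0.95, adjusted p = 7.29e-10 in the authors' deposited table). At 6 h it was at 15564 and 16297 against 7337 and 9486 and was not called (log2 fold change 0.92, adjusted p = 0.205).

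Nsun6, a methyltransferase that places m5C on cysteine and threonine tRNAs, was listed at 3 h and 6 h and not called. Its scaled counts were 448 and 523 in the cKO against 685 and 787 in WT at 3 h, and 186 and 285 against 578 and 578 at 6 h. In the authors' deposited tables the log2 fold changes of Nsun6 were -0.60 (adjusted p = 0.163) and -1.29 (adjusted p = 0.134). Ctu2, of the enzyme that thiolates the anticodons of other tRNAs, was listed at 3 h only (log2 fold change 0.35, adjusted p = 0.58 in the authors' deposited table). Both cysteinyl-tRNA synthetases were listed at no time.

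Genes of other organs differed between the RNA-seq libraries. At 3 h the scaled counts of 6 pancreatic enzyme genes added up to 761 and 5734 in cKO and 2.90 and 9.96 in WT, and 6 genes of the submandibular gland to 1.96 and 4.21 in the cKO and 6953 and 594 in WT. At 6 h these sums were 91.2 and 1180 against 0 and 11.2, and 0.960 and 0 against 1824 and 134. At 0 h 2 of the 6 gland genes were listed, with sums of 3.93 and 0 in cKO and 639 and 2.77 in WT, and none of the pancreatic genes was listed. At 48 h none of either list was. Their part in the values of Slc3a2 and Nsun6 was not tested.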

How the data were processed

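The members and lists were chosen with earlier results of these data known. For tRNA-seq, small RNA was treated with AlkB, a demethylase, per the labels' protocols, and the authors deposited read counts and RPM for 242 references in each of 8 libraries. For m1A-seq the deposited table holds levels in percent, coverage as counts, a difference as a score and a ratio of both levels, and their calling is not given in the sources used here. The deposited RNA-seq tables hold per-library signal (scaled read counts), log2 fold changes and p-values with adjusted p-values, by a test that is not given in the sources used here. The submitters' processing notes name Bowtie2 2.4.1, featureCounts 1.5.0-p3, Trim Galore 0.6.6, HISAT2 2.0.5 and the build mm10, with no role stated.

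Library totals were recovered from counts and RPM. Counts were fitted with edgeR 4.0.16 (glmQLFit, glmQLFTest) over all 8 libraries with time as a factor, the total as library size and references of at least 10 RPM on average, for 5 contrasts, with Benjamini-Hochberg adjustment at 0.05 over each whole table. The plan named limma only for files without counts. Shares used the isoacceptor total as offset. Intervals are 95% confidence intervals of the fit. Scripts were tested on simulated data. Alternatives were DESeq2 1.42.0, limma 3.58.1 on log2(RPM + 1) or log2(RPM + 0.1) and on log2 share ratios (0.5 reads added), no filter, 100 RPM as minimum, the tRNA scale, tRNA reads without TMM factors (added after seeing the data), families of the tested references alone, a replicate block and leaving out each library. Replicate numbers were not treated as pairs in the main fit. Each reference over 10 RPM was named with its values, with the 5 isoacceptors most correlated with the sum, 3 m1A neighbours on either side and called genes of the list. Low references and listed genes were added. Of 42 samples, RiboTag-seq and WT RNA-seq at 18 h were not used here.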

Additional observations from a re-analysis of the deposited data

How the results depend on the processing

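Cys-GCA-1, 4, 4-, 16, 17 and 21 kept their direction and call in every alternative that tested them for 6 h, 18 h and 48 h against 0 h and for 18 h against 6 h, in level and in share. Over these alternatives, the tRNA scale included, their log2 changes in level at 48 h lay between 2.36 and 3.64. For the other references the scale changed directions or calls. With tRNA reads as library size and TMM factors, with tRNA reads alone (chosen after seeing the data) and with DESeq2, in this order, Cys-GCA-2 had -0.086, -0.071 and -0.038 at 6 h and -0.49, -0.37 and -0.45 at 18 h. Cys-GCA-3 had -0.24, -0.11 and -0.19 at 18 h, -0.48, -0.34 and -0.48 at 48 h, and -0.018 and -0.0023 at 6 h by the first and second. Cys-GCA-8 had -0.14, -0.012 and -0.095 at 18 h and -0.17, -0.024 and -0.17 at 48 h. Cys-GCA-7 had -0.083 by the first and -0.087 by DESeq2 at 48 h, and Cys-GCA-5 had -0.015 by the first at 18 h. The sum had 0.012, 0.034 and 0.0040 at 6 h, -0.041, -0.050 and -0.054 at 18 h, -0.21, -0.22 and -0.24 at 48 h, and -0.053, -0.084 and -0.058 for 18 h against 6 h. The first and second settings by construction remove the rise of the tRNA fraction, and for DESeq2 the cause was not tested. In the same order the references called lower were 1, 1 and 1 at 18 h and 2, 2 and 2 at 48 h, and for 18 h against 6 h 1 by the first and 1 by DESeq2, which also called 2 higher for 48 h against 18 h.

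With a minimum of 100 RPM fewer references are tested: 4, 4, 4 and 1 were called higher in level at 6 h, 18 h and 48 h and for 18 h against 6 h, and 2, 3, 3, 1 and 2 in share, the last for 48 h against 18 h. By limma on the log2 ratio 1 share was lower at 6 h and 1 for 18 h against 6 h; the cause was not tested. By the ratio of both levels, Cys-GCA ranked 13 instead of 10 of 44 in m1A. Leaving out 1 library, the sum lay between 0.31 and 0.47 at 18 h, -0.024 and 0.38 at 48 h, and -0.038 and 0.050 for 18 h against 6 h. Cys-GCA-2 lay between -0.015 and 0.16 at 18 h and -0.30 and 0.079 at 48 h, Cys-GCA-3 between -0.14 and 0.27 at 48 h, Cys-GCA-1 between -0.036 and 0.32 for 48 h against 18 h, and the share of Cys-GCA-8 between -0.050 and 0.083 at 6 h. Lower shares numbered 0 to 2 at 6 h and 1 to 2 for 18 h against 6 h.

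With a replicate block no count of calls moved by over 1.5 times and the sum kept its calls. Cys-GCA-8 was then called higher at 6 h (0.40, adjusted p = 0.0469 by edgeR) and 48 h (0.39, adjusted p = 0.0391). It was also called higher at 6 h and 48 h by limma on log2(RPM + 1) (adjusted p = 0.0476 and 0.0406). The same held by limma on log2(RPM + 0.1) (0.0477 and 0.0407) and by edgeR with a minimum of 100 RPM (0.0227 and 0.0191). Deviations of same-numbered libraries correlated between -0.27 and 0.54 across the 6 pairs of times. With 2 libraries at each time, such mixed values cannot show whether the numbers pair the samples. Depth is not the limit for the tested references. With 2 libraries a group and replicates of unknown origin, precision rests on a spread shared by all times, and 1 library at 48 h decides the level of the sum there.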
